A study of Mus musculus with 4 samples.

Results

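The bone morphogenetic protein (BMP) pathway and the dorsal midline of the cortex were followed through 10 genes, picked by symbol out of the 56884 genes counted in each library. They were the ligands *Bmp4*, *Bmp5*, *Bmp6* and *Bmp7*, the type I receptors *Bmpr1a* and *Bmpr1b*, the target genes *Id1* and *Id3*, and the transcription factors *Msx1* and *Lmx1a*. They were picked with their levels by library, cell gate and genotype already known, so the levels and genotype differences of these genes are given as descriptions. Where a count of them past a threshold is given, it stands beside the share of all genes tested, and nothing is read from it. The libraries came from single nuclei of snap-frozen medial neocortex of E16.5 mouse embryos, prepared by combinatorial barcoding (Evercode). Both groups carried Sst-Cre and a tdTomato reporter. The *Dnmt1* KO group carried in addition the *Dnmt1* loxP2 allele, which loses the maintenance DNA methyltransferase in cells with Cre activity, and the control group did not. Cre driven by *Sst* acts in postmitotic interneurons of the somatostatin lineage, so the midline, progenitor and meningeal cells below are not its target cells. Each group had 2 libraries, described as 1 per mouse, and p-values measure the spread between these. Both *Dnmt1* KO libraries and control library 1 formed batch 1, and control library 2 was batch 2 alone, so that batch and this library cannot be told apart.

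BMP ligands are secreted dimers that assemble type I and type II receptors, which phosphorylate Smad transcription factors. The phosphorylated Smads switch on short-lived target genes, among them the Id genes, whose products block basic helix-loop-helix factors. In the developing telencephalon, the dorsal midline produces BMP and Wnt ligands and gives rise to the cortical hem and the choroid plexus. *Lmx1a* marks the hem, and *Msx1* responds to BMP in the roof of the neural tube. The meninges that overlie the cortex are a further source of BMP ligands.

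The analysis rested on 5640, 12064, 7047 and 4905 nuclei with 1500 to 60000 transcripts, in the order *Dnmt1* KO 1, *Dnmt1* KO 2, control 1 and control 2, which all 4-value series below follow. These nuclei held 75338095, 172783347, 100311404 and 112751458 transcripts, with medians of 12274, 12383.5, 12401 and 21140 per nucleus. No barcode was shared between libraries. *Dnmt1* itself was at 61.8, 47.5, 59.6 and 56.0 CPM over all nuclei and 62.3, 51.5, 64.5 and 55.9 CPM in the interneuron gate defined below, where the deletion concerns a part of the nuclei only. The genotypes overlapped in both, so that this level does not check the labels. Levels are transcript counts scaled to a library or gate total of 1000000 (CPM), summed over the nuclei of a library or gate, and the count behind a value limits its precision. Annotated spans ran from 2259 bases for *Id3* to 332427 bases for *Bmpr1b*, so levels are compared between cells and libraries for 1 gene, not between genes.

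Nuclei were gated by marker transcripts. The *Lmx1a* gate, with at least 2 *Lmx1a* transcripts, held 171, 194, 62 and 53 nuclei. The *Ttr* gate, for choroid plexus, held 2, 141, 6 and 4 nuclei and the meningeal gate, by collagen genes *Col1a1* and *Col1a2*, 3, 244, 6 and 7. The radial glia gate by *Pax6* and *Slc1a3* held 822, 988, 552 and 363 nuclei, the excitatory neuron gate by *Neurod2* and *Neurod6* 2425, 4893, 3094 and 2990, and the interneuron gate by *Gad1* and *Gad2* 310, 1413, 1204 and 376. *Dnmt1* KO 2 thus supplied nearly all choroid and meningeal nuclei of the series.

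The *Lmx1a* gate was not a pure hem class. Nuclei with 6 or more *Lmx1a* transcripts carried the 8 hem markers at a summed 5825, 5949.8, 4404 and 4939.6 CPM. Nuclei with 2 to 5 *Lmx1a* transcripts carried those markers at 1348, 999, 787 and 621 CPM, and the 5 Cajal–Retzius neuron markers at 15728, 16735, 14485 and 21354 CPM, led by *Reln*. Cajal–Retzius markers were present above that cut as well, at 5275, 6169.7, 7495 and 16678 CPM, so both kinds of marker were found on either side of it. The 7 choroid markers were all found in the *Ttr* gate of *Dnmt1* KO 2. The 2 to 6 *Ttr*-gated nuclei of each other library had *Kcne2* and *Aqp1* at 0. The 7 meningeal markers summed to 1300 CPM in the meningeal gate of *Dnmt1* KO 2 and to 1288 CPM in the 7 nuclei of control 2. They summed to 382 and 190 CPM in the 3 nuclei of *Dnmt1* KO 1 and the 6 of control 1, where mural cell markers were at 2927 and 3107 CPM. Those 2 small gates are therefore named by their collagen transcripts only.

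*Bmp6*, a ligand known from the choroid plexus, was concentrated in few gates. In the meningeal gate of *Dnmt1* KO 2 it stood at 1088 CPM, on 3953 transcripts, and 73.8% of those nuclei held at least 1. In the *Ttr* gate of the same library it stood at 224 CPM, on 405 transcripts. The meningeal gates of control 1 and control 2, of 6 and 7 nuclei, held *Bmp6* at a mean of 283 ± 400 CPM (SD, n = 2). Of these, control 1, whose gate is named by collagen transcripts only, was at 0 CPM. In the *Lmx1a* gate *Bmp6* stood at 111, 57.6, 73.1 and 35.9 CPM. All 4 libraries were thus far above their own excitatory neurons, at 1.51, 1.19, 0.739 and 0.504 CPM, and the 2 genotypes overlapped. *Bmp6* transcripts were found in 29.2%, 22.2%, 30.6% and 20.8% of *Lmx1a*-gated nuclei against 1.07%, 1.25%, 0.840% and 0.334% of excitatory neurons. The part of free RNA in the latter was not tested. The median depths of these classes were 14756, 16112, 17406 and 31582 and 14729, 15002, 15557.5 and 24172 transcripts per nucleus.

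*Bmp7*, a ligand known from both choroid plexus and meninges, was spread more widely. It stood at 289.7 CPM in the meningeal gate and 148 CPM in the *Ttr* gate of *Dnmt1* KO 2. The small meningeal gates of the controls held *Bmp7* at a mean of 123 ± 174 CPM (SD, n = 2), with control 1 again at 0 CPM. In the *Lmx1a* gate it stood at 48.9, 35.8, 46.8 and 26.1 CPM, and was found in 44.4%, 32.5%, 38.7% and 30.2% of nuclei. Unlike in excitatory neurons, at 0.908, 0.981, 0.815 and 0.194 CPM, radial glia held *Bmp7* at 23.6, 10.4, 21.8 and 10.7 CPM. The radial glia gate held 39.2%, 6.14%, 39.4% and 28.0% of all *Bmp7* transcripts of a library. Both *Bmp6* and *Bmp7* were found in 33 of 171, 26 of 194, 13 of 62 and 6 of 53 *Lmx1a*-gated nuclei, or 19.3%, 13.4%, 21.0% and 11.3%.

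*Bmp5* had a different distribution. The meningeal gate of *Dnmt1* KO 2 held it at 362 CPM and that of control 2 at 663 CPM, although the latter rested on 89 transcripts of 7 nuclei. The *Lmx1a* and *Ttr* gates were joined and are called the hem/choroid gate from here on. It held *Bmp5* at 5.40, 13.2, 8.39 and 9.48 CPM. Outside all gates, nuclei with at least 5 transcripts of the mural genes *Pdgfrb*, *Rgs5* and *Abcc9* held 296, 279, 120.4 and 322 CPM, on 69, 149, 57 and 76 transcripts. This mural class was drawn after the *Bmp5* values had been seen. Every library had the gene above 100 CPM in it, including *Dnmt1* KO 1 and control 1, whose *Bmp5* over all nuclei was below 2 CPM. Taken instead by the gene itself, nuclei outside all gates with 2 or more *Bmp5* transcripts carried the 3 mural markers at 4117, 2592, 2950 and 2747 CPM and the Cajal–Retzius markers at 10452, 1841, 15495 and 15045 CPM. Other nuclei outside the gates carried mural markers at 68.6, 31.1, 45.2 and 63.0 CPM and Cajal–Retzius markers at 1887, 1000.1, 987 and 1301 CPM. The 5 endothelial markers were at 285, 211, 177 and 115 CPM in the *Bmp5* nuclei, against 11.8, 10.1, 7.58 and 13.7 CPM in the others. The 7 meningeal markers were at 76.4, 697, 88.3 and 109 CPM, against 6.13, 17.7, 12.03 and 14.1 CPM. The 8 hem markers were at 752, 709, 606 and 427 CPM, against 260, 151, 143 and 160 CPM.

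*Bmp4*, the ligand of the early dorsal midline, was rare at this stage. All retained nuclei together gave 8, 154, 7 and 5 transcripts. Of the 154 in *Dnmt1* KO 2, 91 lay in the meningeal gate, at 25.0 CPM, and 36 in the *Ttr* gate, at 19.9 CPM. The hem/choroid gate of the libraries held 6, 41, 1 and 3 transcripts, too few outside *Dnmt1* KO 2 to place the gene.

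**Figure D1:**
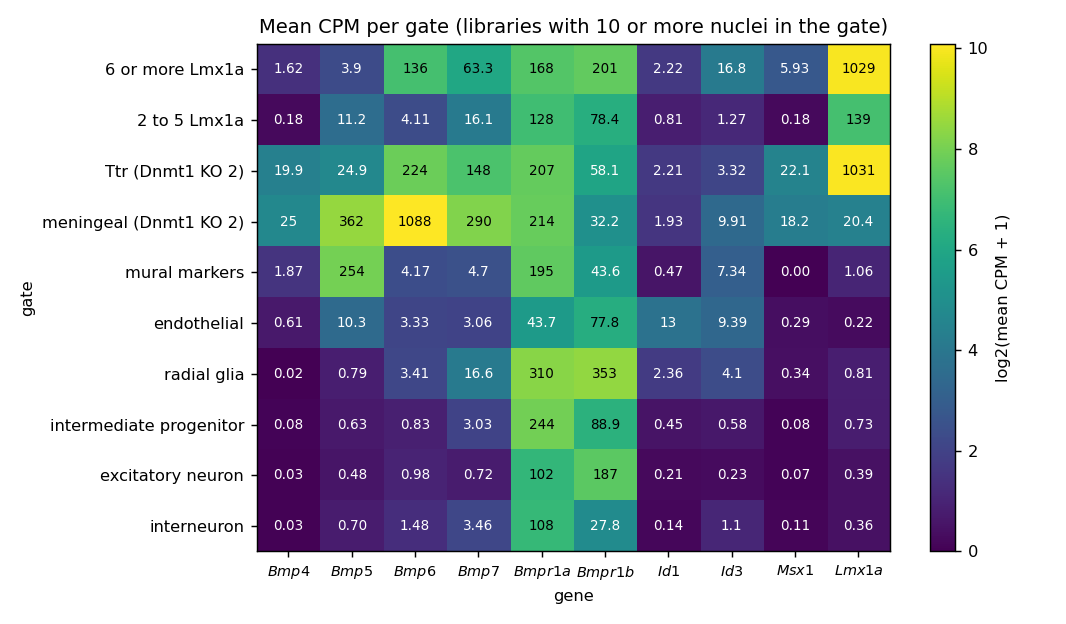
Mean CPM of each of the 10 genes (columns) in each gate (rows), averaged over the libraries with at least 10 nuclei in that gate, with colour giving log2(mean CPM + 1). The *Ttr* and meningeal rows rest on *Dnmt1* KO 2 alone. *Bmp6* reaches its highest mean, 1088 CPM, in the meningeal row, and the receptors *Bmpr1a* and *Bmpr1b* reach theirs, 310 and 353 CPM, in the radial glia row.

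Both type I receptors were found in nearly every gate, in contrast to the ligands. Among the gates with at least 10 nuclei in each library *Bmpr1a* was highest in radial glia, at 298, 312, 309 and 319 CPM, a mean of 309.7 ± 8.72 CPM (SD, n = 4). Intermediate progenitors followed at 276, 252, 227 and 223 CPM, and the hem/choroid gate at 179, 179, 129.8 and 128 CPM. These 3 ranges did not overlap. The mural class outside the gates, at 154 to 238 CPM, overlapped with intermediate progenitors and with the hem/choroid gate. Interneurons (101 to 118 CPM) and excitatory neurons (93.6 to 113 CPM) overlapped with each other, and endothelial nuclei were lowest at 59.0, 32.9, 35.4 and 47.4 CPM. The receptor was also at 214 CPM in the meningeal gate of *Dnmt1* KO 2. In gates of under 10 nuclei it reached 424 CPM, on 10 transcripts in the meningeal gate of *Dnmt1* KO 1, and 354 CPM, on 24 transcripts in the *Ttr* gate of control 2.

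Among the same gates *Bmpr1b* was highest in radial glia too, at 394, 276, 435 and 309 CPM, a mean of 353 ± 73.7 CPM (SD, n = 4). The next gate was a different one, the excitatory neurons at 189, 156, 237 and 166 CPM, above intermediate progenitors at 59.9, 67.2, 131 and 97.1 CPM and interneurons at 38.9, 26.5, 22.8 and 23.0 CPM. The ranges of these 4 gates did not overlap. Hem/choroid nuclei, at 173, 126, 138 and 71.4 CPM, overlapped with excitatory neurons and with intermediate progenitors. Those of them in the *Lmx1a* gate with 6 or more *Lmx1a* transcripts, at 107 to 268 CPM, also overlapped with both. The excitatory neuron gate held 51.2%, 56.5%, 62.4% and 73.8% of all *Bmpr1b* transcripts. In the meningeal gate of *Dnmt1* KO 2 *Bmpr1b* was at 32.2 CPM. It was at 676 CPM in the 6 nuclei of that gate in control 1, where 2 nuclei held all 57 transcripts, and at 489 CPM in the 2 nuclei of the *Ttr* gate of *Dnmt1* KO 1, on 9 transcripts.

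*Id1* and *Id3*, direct targets of phosphorylated Smads, were sparse in nuclear RNA. *Id1* was highest in endothelial nuclei, at 15.1, 14.2, 10.9 and 11.9 CPM, a mean of 13.0 ± 1.97 CPM (SD, n = 4). Radial glia held 1.97, 2.16, 3.44 and 1.87 CPM and excitatory neurons 0.208, 0.233, 0.246 and 0.155 CPM, and these 3 ranges did not overlap. *Id3* was at 9.08, 11.3, 9.08 and 8.15 CPM in endothelial nuclei, at 16.6, 7.17, 3.87 and 6.13 CPM in hem/choroid nuclei and at 5.81, 3.97, 4.45 and 2.18 CPM in radial glia. The hem/choroid range of *Id3* overlapped with both of the others, and excitatory neurons were below all of them at 0.182, 0.368, 0.284 and 0.0776 CPM.

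The sequence upstream of *Id1* and *Id3* is shown because both are known as direct Smad targets, and 2 letter patterns bound by Smads were searched in the 1500 bases upstream of each gene's canonical start. The patterns were GGCGCC, which reads the same on both strands, and GNCGNC followed after 5 bases by GTCT, a loosened form of the composite BMP response element, searched on both strands. The composite can contain the shorter one, although it did not in the windows below. All 10 genes were matched to the GRCm39 sequence with GENCODE vM39 starts. GGCGCC lay upstream of 16.9% of 21757 protein-coding genes and of 2 of the 10, *Bmpr1a* and *Id1*. The composite lay upstream of 1.32% of genes and of 2 of the 10, *Id1* and *Id3*. Capitals mark the match in each 60-base window, given 5′ to 3′ on the plus strand, which is the strand of both genes.
Id1 GGCGCC, chr2:152577045-152577104: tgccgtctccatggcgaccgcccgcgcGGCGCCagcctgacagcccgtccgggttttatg
Id1 composite, chr2:152577104-152577163: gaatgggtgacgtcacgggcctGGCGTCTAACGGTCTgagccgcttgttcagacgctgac
Id3 composite, chr4:135870604-135870663: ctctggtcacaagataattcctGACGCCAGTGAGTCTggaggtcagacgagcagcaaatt
The *Id1* matches began at positions -1093 and -1039 from the canonical start on chromosome 2, inside the annotated span of *Id1* (152566218 to 152579544) but in no exon. The *Id3* match began at position -182 from its start on chromosome 4, in an exon of the overlapping gene model *Gm57159*. A match describes letters and is not a measured site. On the same build, *Bmp6* spans chr13:38529065-38684280, *Bmp5* chr9:75682638-75807592, *Bmp7* chr2:172709805-172782410 and *Bmp4* chr14:46620250-46636745. *Bmpr1a* spans chr14:34132687-34225379, *Bmpr1b* chr3:141542897-141875323, *Lmx1a* chr1:167516677-167676310, *Msx1* chr5:37977829-37981928 and *Id3* chr4:135870808-135873066.

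*Lmx1a* chose the gate and is described only. The hem/choroid gate held 619, 734, 571 and 606 CPM, and the meningeal, hem/choroid and endothelial gates together held 97.1%, 97.2%, 94.96% and 96.3% of its transcripts. *Msx1* was rare, with 16, 166, 16 and 8 transcripts in all. In *Dnmt1* KO 2 it stood at 18.2 CPM in the meningeal gate and 22.1 CPM in the *Ttr* gate. The *Lmx1a* gate held 1.81, 3.58, 4.97 and 1.74 CPM, with both genotypes overlapping.

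**Figure D2:**
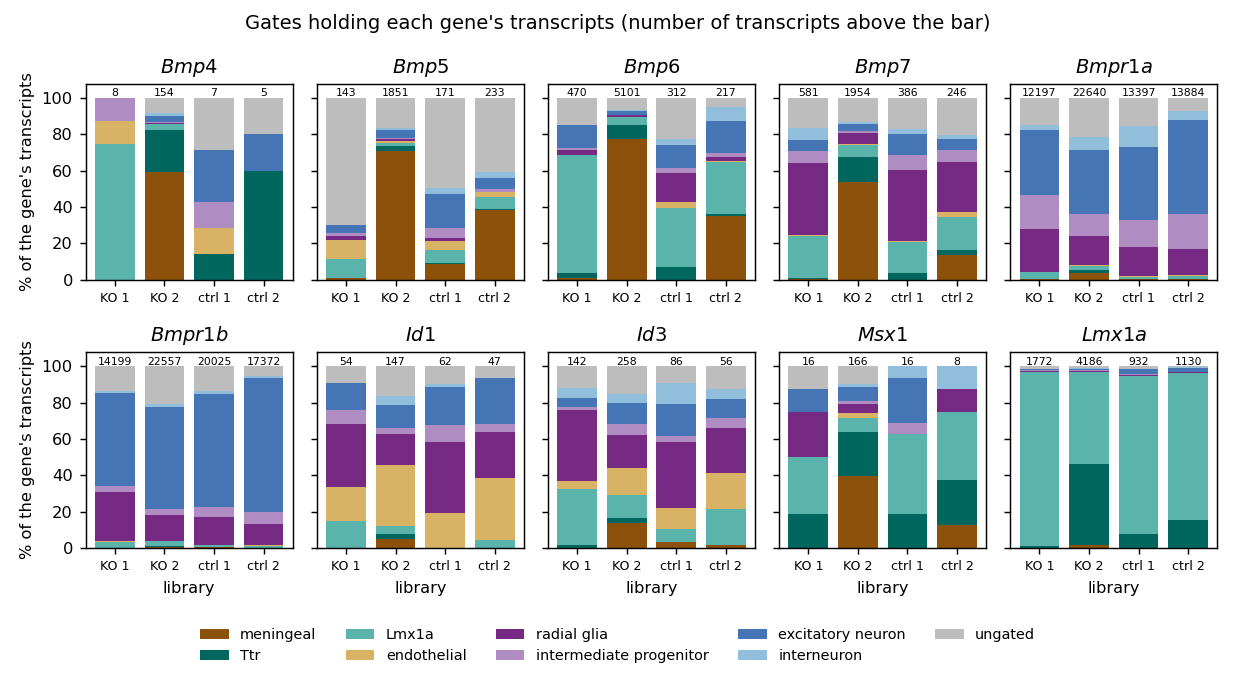
Percentage of each gene's transcripts (vertical axis) that lay in each gate, for each library (horizontal axis), with the number of transcripts above the bar. *Bmp6* shifts to the meningeal gate in *Dnmt1* KO 2, which holds 77.5% of its 5101 transcripts there, whereas *Bmpr1b* lies mostly in excitatory neurons in every library.

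Levels of the ligands were followed across the *Lmx1a* threshold, with no test. Nuclei just inside it, with 2 *Lmx1a* transcripts, numbered 34, 35, 16 and 9, and nuclei just outside, with 1, numbered 52, 122, 47 and 42. *Bmp6* was 5.13, 2.93, 9.08 and 3.53 CPM just inside and 1.16, 1.31, 4.36 and 0 CPM just outside. *Bmp7* was 20.5, 7.34, 15.1 and 10.6 CPM just inside and 16.3, 6.10, 3.27 and 3.06 CPM just outside. *Bmp6* stayed at 12.6, 0.838, 0 and 0 CPM in nuclei with 3 to 5 *Lmx1a* transcripts and stood at 212, 117, 140.3 and 73.5 CPM in those with 6 or more. The wide step in *Bmp6* therefore fell above 5 *Lmx1a* transcripts, and it was present in each library. *Bmp7* was at 36.5, 11.7, 16.4 and 8.16 CPM in the former and 68.0, 63.2, 77.1 and 44.6 CPM in the latter. The median depth was 15884, 19198, 21187.5 and 33780 transcripts per nucleus in the former and 14098, 14950, 17699.5 and 31582 in the latter.

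The other genes were followed at the 2 ends of the gate. Nuclei with 6 or more *Lmx1a* transcripts held *Bmpr1b* at 224, 268, 205 and 107 CPM and those with 2 to 5 at 118, 57.6, 97.7 and 40.2 CPM, higher at the upper end in each library. *Id3* was at 28.2, 18.8, 7.01 and 13.3 CPM at the upper end and 3.63, 0, 1.44 and 0 CPM at the lower, again higher at the upper end in each library. *Bmp5* was at 0, 4.56, 1.40 and 9.64 CPM at the upper end and 10.9, 10.1, 15.8 and 7.81 CPM at the lower, with no common direction.

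**Figure D3:**
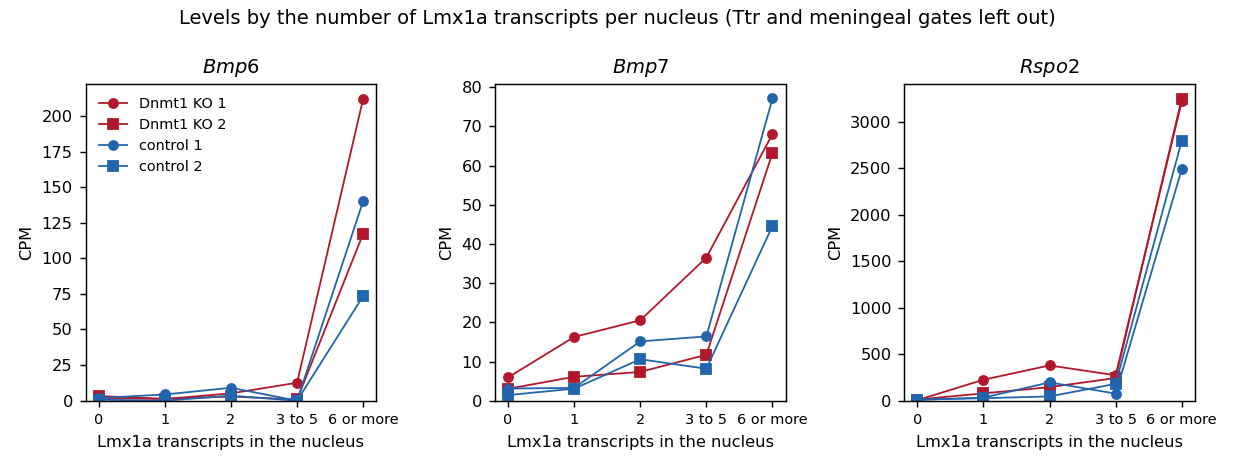
CPM (vertical axis) of *Bmp6*, *Bmp7* and the hem marker *Rspo2* in nuclei grouped by their number of *Lmx1a* transcripts (horizontal axis), 1 line per library, red for *Dnmt1* KO and blue for control. The *Bmp6* lines stay at or below 12.6 CPM up to 5 *Lmx1a* transcripts and lie between 73.5 and 212 CPM at 6 or more.

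The hem/choroid gate was compared with the radial glia gate in the same 4 libraries, which asks where nuclei gated by *Lmx1a* or *Ttr* differ from cortical progenitors. The gate was not one cell type: the 5 Cajal–Retzius markers summed to 10427, 7843, 9969 and 18400.3 CPM in it and the 8 hem markers to 3628, 2884, 2662 and 3009.6 CPM. In radial glia the former summed to 15.6, 286, 107 and 203 CPM and the latter to 167, 155, 109 and 103 CPM. *Bmp6* was higher by a log2 fold change of 5.00 (SE 0.454), *Msx1* by 4.01 (SE 0.575) and *Bmp5* by 3.79 (SE 0.503). *Bmp7* was higher by 1.86 (SE 0.298) and *Id3* by 1.18 (SE 0.331). Both receptors were lower, *Bmpr1a* at -0.82 (SE 0.124) and *Bmpr1b* at -1.31 (SE 0.162), and *Id1* was at -0.25 (SE 0.594). *Bmp4* had too few transcripts to enter. By edgeR's quasi-likelihood test with the library as a block, 7 of 8 genes passed an adjusted p of 0.05, with *Lmx1a* not counted as a gate gene, and 5 of them were higher, beside 42.1% of all genes tested and 22.1% that were higher and 20.1% that were lower. The value of *Id3* was 0.94 without *Dnmt1* KO 1, 1.05 without control 2 and 0.82 with a threshold of 1 *Lmx1a* transcript, and 1.06 to 2.26 under the other 8 alternatives. In nuclei with 6 or more *Lmx1a* transcripts alone, an alternative added after the data had been seen, *Bmp6* was at 5.63, *Bmp7* at 2.21, *Msx1* at 4.04, *Id3* at 2.26, *Bmpr1a* at -0.67 and *Bmpr1b* at -0.63. *Bmp5* and *Id1* did not have enough transcripts to enter there. The part of Cajal–Retzius neurons in the values of the whole gate was not tested further.

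Of 44 pathway genes listed outside the 10, 31 had enough transcripts, and 10 were higher and 10 lower in hem/choroid nuclei (edgeR, adjusted p of 0.05), beside 22.1% and 20.1% of all genes, with a median log2 fold change of -0.02 beside -0.04 over all genes. The ligand *Bmp2* was higher by 4.08 (SE 0.491) and the co-receptor *Rgmb* by 2.46 (SE 0.290). *Bmper*, an extracellular BMP modulator, was lower, at -2.89 (SE 0.127), with 417, 552, 527 and 593 CPM in radial glia and 53.3, 54.4, 73.6 and 64.7 CPM in hem/choroid nuclei. It was at -3.46 in nuclei with 6 or more *Lmx1a* transcripts. The antagonist *Nog* was lower, at -2.47 (SE 0.463), but at -2.38 in nuclei with 6 or more *Lmx1a* transcripts it did not pass.

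Of 22 listed dorsal midline genes, 20 entered, as *Ttr* was left out as a gate gene and *Lmx1b* did not have enough transcripts. Of these, 17 were higher and 3 lower in hem/choroid nuclei (edgeR, adjusted p of 0.05), beside the same shares of all genes, with a median of 3.24. The R-spondins, secreted amplifiers of Wnt signalling, were among the higher ones. *Rspo2* was at 1799, 1479, 1358 and 1584 CPM in hem/choroid nuclei and 6.32, 9.24, 0.718 and 0.934 CPM in radial glia. *Rspo3* was higher by 6.08 (SE 0.423) and *Rspo1* by 6.44 (SE 0.306). The homeobox gene *Otx2* was higher by 6.96 (SE 0.429) and the Wnt ligand *Wnt2b* by 4.59 (SE 0.305). *Wnt3a*, the ligand that defines the hem, was at 81.3, 47.6, 56.2 and 43.5 CPM in hem/choroid nuclei, with 3, 0, 0 and 0 transcripts in radial glia. Both lists were drawn up with earlier results of these data known.

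Radial glia were then compared with excitatory neurons of the same libraries, the progenitors with their progeny. *Bmp7* was higher in radial glia by a log2 fold change of 4.04 (SE 0.331), *Id3* by 3.66 (SE 0.310) and *Id1* by 2.99 (SE 0.234). *Bmpr1a* was higher by 1.16 (SE 0.0731) and *Bmpr1b* by 0.46 (SE 0.0635). *Bmp6* was at 1.21 (SE 0.544) and *Bmp5* at 0.25 (SE 0.367). In edgeR, 5 of 7 genes passed an adjusted p of 0.05, all of them higher in radial glia, beside 70.9% of all genes and 36.5% that were higher. *Lmx1a* was not counted, as nuclei with 2 or more of its transcripts had been gated out, and *Bmp4* and *Msx1* did not have enough transcripts.

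Of the other pathway genes 35 entered, with 15 higher and 15 lower in radial glia (edgeR, adjusted p of 0.05), beside 36.5% and 34.4% of all genes, and a median of 0.01 beside 0.02 over all genes. *Id4*, an Id family member of neural progenitors, was higher by 4.10 (SE 0.198) and stood at 92.6, 52.3, 74.1 and 107 CPM in radial glia. The antagonist *Nog* was higher by 3.78 (SE 0.361), *Bmper* by 3.73 (SE 0.125) and the antagonist *Chrdl1* by 2.51 (SE 0.223). The antagonist *Grem1* was lower, at -3.21 (SE 0.532). *Bmper* and *Nog* were thus higher in radial glia than in either hem/choroid nuclei or excitatory neurons. Of the dorsal midline genes 18 entered, with 12 higher and 4 lower, beside the same shares. *Gli3*, a zinc-finger factor of dorsal progenitors, was higher by 4.49 (SE 0.124) and *Wnt8b* by 4.16 (SE 0.243), and *Rspo3* was lower, at -3.77 (SE 0.330).

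Over all retained nuclei, the ligands differed widely between the libraries. *Bmp6* stood at 6.24, 29.5, 3.11 and 1.92 CPM, on 470, 5101, 312 and 217 transcripts. *Bmp5* stood at 1.90, 10.7, 1.70 and 2.07 CPM, with *Dnmt1* KO 2 alone high and *Dnmt1* KO 1 between the controls. *Bmp7* stood at 7.71, 11.3, 3.85 and 2.18 CPM. *Bmp4* stood at 0.106, 0.891, 0.0698 and 0.0443 CPM. Both *Dnmt1* KO libraries were above both controls for *Bmp4*, *Bmp6* and *Bmp7*. In such sums, fewer cells of a type and less RNA per cell cannot be told apart.

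Among the transcription factors and targets, *Lmx1a* stood at 23.5, 24.2, 9.29 and 10.0 CPM, *Msx1* at 0.212, 0.961, 0.160 and 0.0710 CPM and *Id3* at 1.88, 1.49, 0.857 and 0.497 CPM. *Id1* stood at 0.717, 0.851, 0.618 and 0.417 CPM. For each of these 4 genes the *Dnmt1* KO libraries lay above the controls. The receptors did not separate, as *Bmpr1a* was at 162, 131, 134 and 123 CPM and *Bmpr1b* at 188, 131, 199.6 and 154 CPM, and the genotypes overlapped for both.

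**Figure D4:**
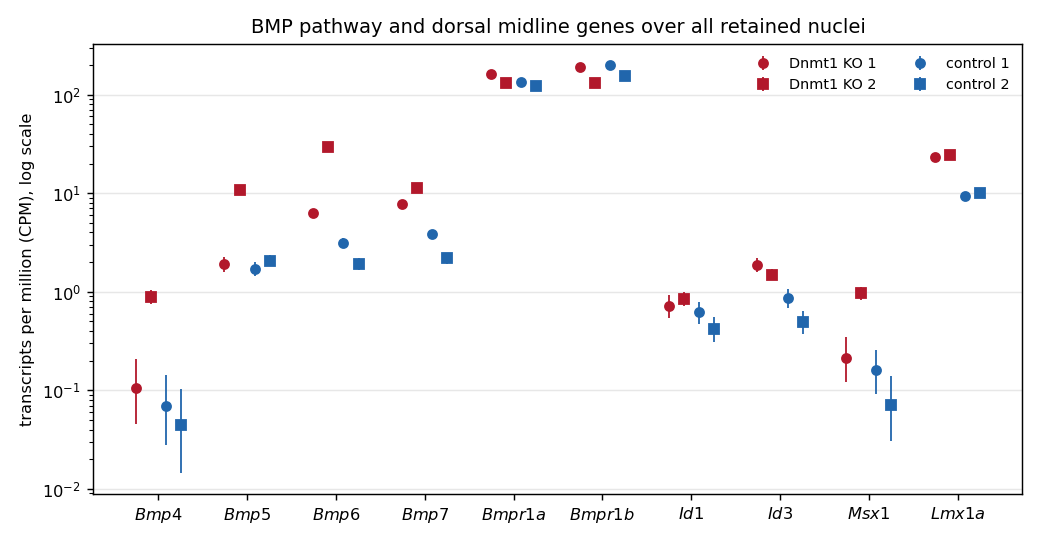
CPM on a log axis of each of the 10 genes over all retained nuclei, 1 point per library, red for *Dnmt1* KO and blue for control, with circles for replicate 1 and squares for replicate 2. Bars are exact 95% Poisson intervals, which cover counting error only. *Bmp5* and *Bmp6* show 1 library, *Dnmt1* KO 2, far above the rest at 10.7 and 29.5 CPM.

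The log2 fold change of *Dnmt1* KO against control was 3.17 (SE 1.11) for *Bmp4*, 1.74 (SE 0.812) for *Bmp5*, 2.83 (SE 0.794) for *Bmp6* and 1.65 (SE 0.346) for *Bmp7*. It was 1.29 (SE 0.113) for *Lmx1a*, 2.39 (SE 0.860) for *Msx1*, 1.30 (SE 0.340) for *Id3* and 0.59 (SE 0.317) for *Id1*. *Bmpr1a* was at 0.17 (SE 0.126) and *Bmpr1b* at -0.17 (SE 0.213). The median over the 10 was 1.47, and over all genes it was -0.01. By edgeR 0 of the 10 passed an adjusted p of 0.05, as did 0% of the 21516 genes tested, while 6 of the 10 were under an unadjusted p of 0.05 beside 7.49% of all genes. DESeq2 called 2 of the 10 beside 0.925% of all genes. In 7 of the 10 both *Dnmt1* KO libraries were above both controls and in 0 below them, beside 19.3% and 20.7% of all genes. This contrast was known when the genes were chosen.

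The values of *Bmp4*, *Bmp5*, *Bmp6* and *Msx1* moved with *Dnmt1* KO 2. Without it, *Bmp4* was at 0.87, *Bmp5* at -0.011 and *Bmp6* at 1.30, while *Bmp7* was at 1.34, *Lmx1a* at 1.26 and *Id3* at 1.46. *Msx1* was at 0.87. Without *Dnmt1* KO 1, edgeR called 4 of the 10 beside 0.825% of all genes. These were *Bmp4* at 3.95, *Bmp5* at 2.50, *Bmp6* at 3.55 and *Lmx1a* at 1.32. Within batch 1, that is without control 2, *Bmp6* was at 2.54, *Bmp7* at 1.31, *Lmx1a* at 1.37 and *Id3* at 0.98.

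Markers of the meninges and the choroid plexus moved with that library. The 7 meningeal markers summed to 3.11, 41.1, 5.44 and 4.00 CPM over all nuclei and the 7 choroid markers to 6.29, 18.4, 2.78 and 2.02 CPM. The 8 hem markers summed to 351, 252, 191 and 189.8 CPM, with both *Dnmt1* KO libraries above both controls. *Ttr*, an abundant choroid plexus transcript, was at 0.260, 11.4, 0.246 and 0.0259 CPM in excitatory neurons, highest in *Dnmt1* KO 2. Whether free RNA or doublets supplied these transcripts was not tested, nor was the part of either in the ligand values. The meningeal, hem/choroid and endothelial gates together held 68.7%, 89.7%, 42.6% and 65.4% of *Bmp6* transcripts, 21.7%, 76.3%, 21.1% and 48.1% of *Bmp5* and 24.8%, 74.5%, 21.2% and 37.0% of *Bmp7*.

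With these gates left out, *Bmp5* was at 0.81, *Bmp6* at 1.11 and *Bmp7* at 1.02. *Id3* was at 1.13 and *Msx1* at 2.35. *Lmx1a* was at 0.77, a value shaped by the gate itself, since nuclei with 2 or more of its transcripts had been left out. *Bmp4* no longer had enough transcripts. By edgeR 0 of the remaining 9 passed, 2 were under an unadjusted p of 0.05 beside 5.93% of all genes, and 5 had both *Dnmt1* KO libraries above both controls beside 16.3%. *Lmx1a* is counted among the 9.

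**Figure D5:**
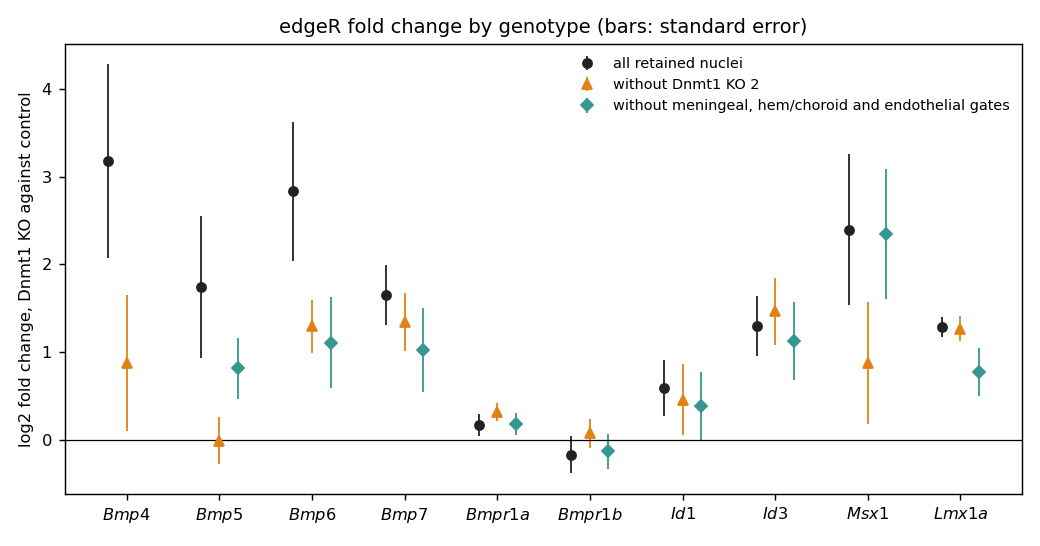
edgeR log2 fold change of *Dnmt1* KO against control (vertical axis, bars are standard errors) for each of the 10 genes, over all retained nuclei, without *Dnmt1* KO 2, and without the meningeal, hem/choroid and endothelial gates. *Bmp6* moves from 2.83 to 1.30 and 1.11 and *Bmp5* from 1.74 to -0.011 and 0.81, whereas *Lmx1a* stays at 1.26 without *Dnmt1* KO 2.

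The share of nuclei in each gate was compared by genotype. The hem/choroid gate held 3.07%, 2.78%, 0.965% and 1.16% of nuclei, a mean of 2.92% ± 0.205 in *Dnmt1* KO and 1.06% ± 0.139 in control (SD, n = 2 each). The difference of 1.86 percentage points is a description with no test, since *Lmx1a* sets the gate and its levels were known when the genes were chosen. Nuclei with at least 5000 transcripts were also thinned to 5000 each, so that every library, the deeper control 2 included, was read at the same depth. The means were then 2.08% in *Dnmt1* KO and 0.512% in control, a difference of 1.56 points. The meningeal gate held 0.0532%, 2.02%, 0.0851% and 0.143%, a gate of 1 library in practice, and the radial glia gate 14.6%, 8.19%, 7.83% and 7.40%. How the tissue pieces differed between embryos is not given in the sources used here, so the extent of the dissected midline cannot be told apart from the library.

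Genotype values were also taken within gates. In radial glia *Bmpr1a* was at 0.0035 (SE 0.101), *Bmpr1b* at -0.11 (SE 0.238), *Bmp7* at 0.086 (SE 0.494), *Id1* at -0.32 (SE 0.433) and *Id3* at 0.58 (SE 0.432). By edgeR 0 of 6 passed an adjusted p of 0.05, beside 0% of 14240 genes. None was under an unadjusted p of 0.05, beside 6.36% of genes, and DESeq2 called 0 of the 6 beside 0.232%. Libraries of the genotypes overlapped for all 6, whereas *Dnmt1* KO was above both controls in 14.1% and below both in 25.2% of genes. In excitatory neurons *Bmp6* was at 1.15 (SE 0.320), with *Dnmt1* KO libraries at 1.51 and 1.19 CPM and controls at 0.739 and 0.504 CPM. *Bmpr1a* was at 0.13 (SE 0.116) and *Bmpr1b* at -0.19 (SE 0.198) there. In edgeR 0 of 7 passed, beside 0% of 18955 genes, 1 was under an unadjusted p of 0.05 beside 5.81%, and DESeq2 called 0 beside 0.285%. In 2 of the 7, both *Dnmt1* KO libraries lay above the controls and in 0 below, beside 14.2% and 24.3% of genes.

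The interneuron gate holds the lineage in which Cre acts, together with interneurons of other lineages. *Bmpr1a* was at -0.043 (SE 0.115) there and *Bmpr1b* at 0.52 (SE 0.213). *Bmp7* transcripts numbered 39, 15, 12 and 5 and stood at 11.1, 0.993, 0.931 and 0.768 CPM, high in *Dnmt1* KO 1 alone. By edgeR 0 of 4 passed an adjusted p of 0.05 and 0 an unadjusted one, beside 0% and 3.94% of 14045 genes, and DESeq2 called 0 beside 0.0214%. *Bmpr1b* was 1 of the 4 with both *Dnmt1* KO libraries above both controls, and 0 lay below, beside 13.2% and 22.0% of genes.

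In hem/choroid nuclei *Bmp6* was at 114, 113, 80.1 and 36.2 CPM and at a log2 fold change of 0.96 (SE 0.362). *Bmpr1a* was at 0.45 (SE 0.160), *Id3* at 1.16 (SE 0.577) and *Bmp7* at 0.61 (SE 0.344). By edgeR 0 of 7 passed an adjusted p of 0.05, beside 0% of 11372 genes. Of the 7, 2 were under an unadjusted p of 0.05 beside 7.57% of genes, and DESeq2 called 0 beside 0.0352%. Both *Dnmt1* KO libraries lay above both controls in 3 of the 7 and below in 0, beside 20.2% and 19.1%. With the *Ttr* part left out, which is 141 of the 335 nuclei of *Dnmt1* KO 2, *Bmp6* was at 0.62 and *Bmpr1a* at 0.45, and the *Bmp6* values of the genotypes overlapped. Over the whole hem/choroid gate, the summed Cajal–Retzius and hem markers of the genotypes overlapped. They stood apart above a cut that was added after the data had been seen. In nuclei with 6 or more *Lmx1a* transcripts the Cajal–Retzius markers summed to 5275, 6169.7, 7495 and 16678 CPM, lower in both *Dnmt1* KO libraries, and the hem markers to 5825, 5949.8, 4404 and 4939.6 CPM, higher in both. In those nuclei *Bmp6* was at 0.61 and *Bmpr1a* at 0.40. The part of the cell mix in these values was not tested.

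Of the other 44 pathway genes, 40 entered the genotype comparison over all nuclei. By edgeR 0 passed an adjusted p of 0.05, 4 were under an unadjusted p of 0.05 beside 7.49% of all genes, and DESeq2 called 0 beside 0.925%. The median was 0.04. The inhibitory Smad gene *Smad7*, itself switched on by the pathway, was at 9.23, 8.87, 12.1 and 15.4 CPM over all nuclei, a log2 fold change of -0.62 (SE 0.166). It was at -0.85 (SE 0.228) in radial glia, -0.76 (SE 0.195) in excitatory neurons, -0.76 (SE 0.299) in interneurons and -1.0 (SE 0.316) in hem/choroid nuclei. Both *Dnmt1* KO libraries lay below both controls in each of these sets of nuclei, which come from the same 4 libraries and of which the first contains the others, beside 20.7%, 25.2%, 24.3%, 22.0% and 19.1% of all genes, and edgeR's adjusted p was 0.649, 0.746, 0.798, 0.929 and 0.640. The co-receptor *Rgmb* was at -0.45 (SE 0.113) and *Id2* at -0.61 (SE 0.175) over all nuclei. Of the 4 pathway genes under edgeR's unadjusted p of 0.05 there, 1 was higher in *Dnmt1* KO and the others, named here, were lower. In radial glia, excitatory neurons, interneurons and hem/choroid nuclei, 0 of 30, 36, 26 and 26 pathway genes passed, with 1, 4, 0 and 5 under an unadjusted p of 0.05 beside 6.36%, 5.81%, 3.94% and 7.57% of all genes. DESeq2 called 0 in each, beside 0.232%, 0.285%, 0.0214% and 0.0352% of all genes.

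Of the 22 dorsal midline genes, 21 entered over all nuclei. By edgeR 0 passed, 10 were under an unadjusted p of 0.05 beside 7.49% of all genes, all 10 higher in *Dnmt1* KO, and DESeq2 called 9 beside 0.925%. As the list was drawn up with earlier results known, these counts are a description. Their median was 0.97, beside -0.01 over all genes, and the smallest adjusted p was 0.649 in edgeR. *Otx2* was at 2.40 (SE 0.324), *Zic2*, a zinc-finger gene of the dorsal midline, at 1.07 (SE 0.146) and *Rspo2* at 1.05 (SE 0.164). In radial glia, excitatory neurons, interneurons and hem/choroid nuclei, 0 of 17, 20, 15 and 19 passed, with 4, 2, 1 and 1 under an unadjusted p of 0.05 beside 6.36%, 5.81%, 3.94% and 7.57% of all genes. DESeq2 called 1, 0, 0 and 0 beside 0.232%, 0.285%, 0.0214% and 0.0352%. Their medians were 0.52, 0.35, 0.93 and 0.18. *Rspo2* in radial glia was at 6.32, 9.24, 0.718 and 0.934 CPM, with both *Dnmt1* KO libraries above both controls, as were 14.1% of all genes.

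Likeness of pattern was described by Pearson's r of log2(CPM + 1) over 30 library and gate sums, which share libraries and depth. *Bmp6* was most like *Msx1* among the 10, at 0.91, and *Bmp7* next at 0.84. *Msx1* had 197 transcripts in these sums, under the minimum of 200 set for the search over all genes. *Bmp6* and *Lmx1a* were at 0.81, *Id1* and *Id3* at 0.78, and the receptors with each other at 0.42. Over all genes with enough transcripts, *Bmp6* was most like *Adamts15* at 0.92, *Bmp5* like *Pla2r1* at 0.92, *Bmp7* like *Mamdc2* at 0.94 and *Lmx1a* like *Ccdc190* at 0.95. *Bmpr1a* was most like *Gm2885* at 0.96, *Bmpr1b* like *Adamts18* at 0.87, *Id1* like *Pan3* at 0.94 and *Id3* like *Utrn* at 0.92.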

How the data were processed

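Whole-number transcript counts per gene and nucleus were deposited by the authors for each library, made with Trailmaker (Parse Biosciences; version not given in the sources used here) on the mm39/GRCm39 mouse genome and not normalized. Deposited per-cell totals, also counts, matched the matrices exactly. The study's own software notes name R 4.4.1 and Seurat 5.0.1.9001. How intronic reads were counted, and with which annotation, is not given in the sources used here, and overlapping genes share reads.

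Nuclei were barcodes with a total of 1500 to 60000 transcripts, of which mitochondrial genes took no more than 10%. Barcodes above 60000 held 1.35%, 4.37%, 19.2% and 29.4% of all transcripts. Control 2 had 2.49 reads per transcript and the others 1.65 to 1.66. Each nucleus was assigned to the first gate it met: meningeal (*Col1a1* plus *Col1a2* at least 3), *Ttr* (at least 5 with 1 *Lmx1a*, or at least 20), *Lmx1a* (at least 2), endothelial (*Cldn5* plus *Flt1* at least 3), interneuron (*Gad1* plus *Gad2* at least 3, at most 1 *Neurod2* plus *Neurod6*), intermediate progenitor (*Eomes* at least 2), radial glia (*Pax6* and *Slc1a3* at least 1 each, without *Eomes*) and excitatory neuron (*Neurod2* plus *Neurod6* at least 2). Doublets, called by scrublet in scanpy 1.11.5 at 3.01% to 7.16% of nuclei, were kept and removed as an alternative.

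Counts were summed per library and gate and tested with edgeR 4.0.16 (quasi-likelihood, TMM scaling, filterByExpr, Benjamini-Hochberg over all genes tested) in R 4.3.3, with the library as a block between gates and no covariate between genotypes. DESeq2 1.42.0 was an alternative. The scripts were tested on simulated data. Fold changes are log2. Their standard errors from edgeR were derived as the absolute fold change over the square root of the test's F statistic. Intervals are exact 95% ones that cover counting error only. The 10 genes, the list of 44 other pathway genes and the list of 22 dorsal midline genes were chosen with earlier results of these data known. Named genes were the 10 and, per comparison, the 6 of each list with the largest change among those that passed or, where none passed, the 3 with the smallest p. Some genes that this rule names are not reported here. Alternatives were another tool, no filter on low counts, a batch covariate, a replicate block, each library left out, read-based barcode limits, doublets removed and other gate thresholds. The reporter and Cre transcripts were not analysed here. Differences between replicates 1 and 2 of the 2 genotypes correlated at -0.01 over genes. With 2 pairs, and batch differing between the controls, this cannot show whether replicate numbers paired the libraries.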

Additional observations from a re-analysis of the deposited data

Results flagged for a closer look

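*Bmpr1b* stood apart between gates: both *Dnmt1* KO libraries lay above both controls in the *Lmx1a* gate and in the interneuron gate, and below both in the intermediate progenitor gate. The difference of the means was 53.1 CPM in the *Lmx1a* gate, where *Dnmt1* KO stood at 165 ± 8.58 CPM (SD, n = 2) and the controls at 112 ± 56.2 CPM (SD, n = 2). With the *Ttr* nuclei joined to it, in the hem/choroid gate, the genotypes overlapped, at 150 ± 33.8 and 105 ± 47.3 CPM (SD, n = 2 each). They also overlapped in nuclei with 2 to 5 *Lmx1a* transcripts, at 87.9 ± 42.9 and 68.9 ± 40.7 CPM (SD, n = 2 each). The difference of the means was 9.75 CPM in the interneuron gate, from 32.7 ± 8.75 CPM (SD, n = 2) and 22.9 ± 0.162 CPM (SD, n = 2). It was -50.6 CPM in the intermediate progenitor gate, from 63.6 ± 5.18 CPM (SD, n = 2) and 114 ± 24.2 CPM (SD, n = 2). Among all genes with at least 3 transcripts in each library of a gate, both *Dnmt1* KO libraries lay above both controls in 19.4% and below in 19.8% in the *Lmx1a* gate. In the interneuron gate these shares were 13.8% and 21.1%, and in the intermediate progenitor gate 14.5% and 24.9%. *Bmpr1b* is given here because its direction was not the same in these gates. Whether the genotype difference differed between these gates was not tested. Groups of 2 libraries are too small for a test of single outlying libraries.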

How the results depend on the processing

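By genotype, edgeR called 0 genes in all 5 sets of nuclei at an adjusted p of 0.05. DESeq2 called 199 over all nuclei, 33 in radial glia, 54 in excitatory neurons, 3 in interneurons and 4 in hem/choroid nuclei. Without the filter on low counts edgeR called 70, 492, 526, 351 and 787. Leaving out 1 library at a time gave 0 to 188 over all nuclei (188 without *Dnmt1* KO 1), 0 to 219 in radial glia (219 without *Dnmt1* KO 2 and 68 without *Dnmt1* KO 1), 0 to 2 in excitatory neurons, 0 in interneurons and 0 to 289 in hem/choroid nuclei (289 without *Dnmt1* KO 1). The cause was not tested.

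The fit with the replicate number as a block called 0 genes in each genotype comparison. Whether the numbers paired the libraries could not be told. The fit with batch as a covariate called 0 as well. Under the block, *Bmp5* was at -0.15 in interneurons and -0.025 in hem/choroid nuclei, and *Bmp6* at -0.38 in interneurons.

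For the 10 genes, 463 values under an alternative kept the direction and the side of the threshold, 12 newly passed, 3 no longer passed and 35 turned the direction. The 3 were *Id3* between hem/choroid nuclei and radial glia, without *Dnmt1* KO 1, without control 2 and with a threshold of 1 *Lmx1a* transcript. Of the 12, 9 were over all nuclei, 1 in excitatory neurons, 1 in hem/choroid nuclei and 1 between radial glia and excitatory neurons. Without the filter on low counts edgeR called 3 of the 10 over all nuclei, beside 70 of 36774 genes. It called 0 in radial glia beside 492 of 27116 and 1 in excitatory neurons beside 526 of 33995. In interneurons it called 1 beside 351 of 27374 and in hem/choroid nuclei 1 beside 787 of 24464. With 1 library left out, the range over all nuclei was -0.011 to 2.50 for *Bmp5* and -0.44 to 0.075 for *Bmpr1b*. In radial glia it was -1.55 to 1.93 for *Bmp6*, -0.60 to 0.71 for *Bmp7*, -0.046 to 0.056 for *Bmpr1a*, -0.37 to 0.18 for *Bmpr1b* and -0.70 to 0.21 for *Id1*. In excitatory neurons it was -1.23 to 1.75 for *Bmp5*, -0.42 to 0.071 for *Bmpr1b* and -0.11 to 0.53 for *Id1*. In interneurons it was -2.36 to 0.93 for *Bmp6* and -0.12 to 0.033 for *Bmpr1a*. In hem/choroid nuclei it was -0.76 to 0.55 for *Bmp5* and -0.68 to 1.16 for *Msx1*, and against radial glia -0.70 to 0.20 for *Id1*. With batch as a covariate *Bmp7* was at -0.34 in radial glia and *Id1* at -0.11 in excitatory neurons, and with doublets removed *Id1* was at -0.25 there. With barcodes limited by mapped reads, *Bmp6* was at 0.72 in radial glia, and in hem/choroid nuclei *Bmp5* was at -0.42 and *Msx1* at -0.047. *Bmp5* in hem/choroid nuclei was at -0.11 with doublets removed and -0.42 in the *Lmx1a* part alone. DESeq2 put *Bmp6* at -0.16 in interneurons. The difference in the share of meningeal nuclei ran from -0.061 to 1.91 points with 1 library left out, and was -0.061 without *Dnmt1* KO 2.

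With 2 libraries per genotype, sparse genes such as *Bmp4* and *Msx1*, at 5 to 166 transcripts per library, were limited by counting. A difference that edgeR did not call was not shown to be absent.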

Other observations

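*Gdf7*, a BMP ligand of the roof plate that was on the pathway list, had 0, 0, 0 and 0 transcripts in hem/choroid nuclei. A count of 0 allows up to 1.08, 0.552, 1.94 and 1.67 CPM there (3 transcripts of each total, counting error only).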
